A study of Homo sapiens with 6 samples.

Results

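ELAVL1 is the gene that encodes HuR, the protein whose RNA targets were mapped here, and the question was where HuR was recovered on its own transcript. Members were chosen by position alone. They are the minus-strand HuR sites that overlap the ELAVL1 span on hg19, chr19:8023457-8070529, which is 47.1 kb long. There were 22 such sites of 186157 in replicate 1, 29 of 405048 in replicate 2 and 30 of 550681 in replicate 3. The list combined over the replicates had 37 of 658853, and its version limited by the authors at p 0.05 had 25 of 373845.

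All samples came from HEK293, an established human embryonic kidney cell line, without treatment or genetic change named in the labels. Lysate was digested with micrococcal nuclease and precipitated with the antibody 3A2 to HuR in 3 samples and with normal mouse serum in 3 negative control samples. Per the labels' protocols, fragments of HuR-bound RNA were then cut from a gel by size and sequenced, and digested lysates were pooled before the precipitations, so an SD over replicates may cover technical spread only. No values of the negative control precipitations were used here, and read depth per library is unknown. Each site carries the authors' LOD score, whose scale no label or header gives and whose levels differ between lists. Scores were therefore turned into percentiles within a list, where 50 is the median site of that list.

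HuR is a widely expressed member of the ELAV family of RNA-binding proteins and binds U-rich and AU-rich stretches of RNA, in 3' UTRs and also in introns. Binding of HuR is known to stabilise many messenger RNAs and to affect splicing and polyadenylation. HuR is also known to bind its own mRNA, and ELAVL1 transcripts are made with 3' UTRs of different length through the choice of polyadenylation site.

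The annotated 3' UTR of ELAVL1 is long, has a T content near that of other genes and holds runs of T more often than most. In GENCODE 29, on GRCh38, the full-length ELAVL1 transcript has 6015 nt in 6 exons. Its terminal exon has 5229 nt and holds the whole 3' UTR of 4904 nt, while the other 5 exons together have 786 nt. T (U in the RNA) made up 31.2% of the 3' UTR, against 19.2% of the rest of the transcript. Among 10133 genes with an annotated 3' UTR of at least 1 kb, the median T content was 30.4%, and 55.5% of these genes lay below ELAVL1. The motif TTTTT, read on the transcript strand only and with overlapping matches counted, occurred 45 times, or 9.18 times per kb, against a median of 6.32 per kb over those genes, of which 69.8% lay below ELAVL1. The motif ATTTA, counted in the same way, occurred 13 times, or 2.65 times per kb, against a median of 1.97. Of 30-nt windows, 12.3% held TTTTT in the ELAVL1 3' UTR and 9.30% over the 3' UTRs of those 10133 genes, and 5.52% and 5.59% held ATTTA. The U-rich parts were not spread evenly. The 0.5-kb segments with the most T were 3.5 to 4 kb from the transcript's end (41.4%), 0.5 to 1 kb (38.0%) and 0 to 0.5 kb (36.6%). The segment from 2.5 to 3 kb had the least, 23.8%.

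The stretches below are shown because they are the 3 most T-rich 30-nt stretches of that 3' UTR that do not overlap and the stretch with the most ATTTA. They are written 5' to 3' in DNA letters, with runs of 5 or more T, or ATTTA in the last line, in capitals. Distance is counted along the annotated transcript from its own last base, so it is not a position on hg19.
T-rich, 3745 nt from the transcript end, with 24 T: ttttcttttgcTTTTTTgtgTTTTTTgttt
T-rich, 3664 nt from the transcript end, with 23 T: ttttgttttgTTTTTTattttaccttttct
T-rich, 472 nt from the transcript end, with 22 T: ttgccTTTTTaTTTTTTTTTTTTaatcctt
With 4 matches to ATTTA, 3261 nt from the transcript end: tttATTTAtacctATTTAtgtATTTATTTA

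No exon map on hg19 was used here. The sites were therefore not assigned to exons, introns or the UTR, the stretches were not matched to sites, and only the distance of a site from the 3' end of the hg19 span is given.

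Most of the recovered ELAVL1 sequence lay close to the 3' end. In replicate 1, 15 of 22 sites lay within 6 kb of the 3' end, in replicate 2 it was 20 of 29 and in replicate 3 it was 19 of 30. These sites held 77.1%, 81.9% and 76.9% of the ELAVL1 bases covered in replicates 1, 2 and 3. The mean share was 78.6% ± 2.85 (SD, n = 3). The 3' 6 kb had 3.00 ± 0.441 sites per kb, against 0.219 ± 0.0487 per kb in the rest of the span (SD, n = 3 each). Sites covered 21.0%, 39.6% and 33.5% of the 3' 6 kb in replicates 1, 2 and 3, against 0.913%, 1.28% and 1.47% of the rest. The ranges of the 3' end and the rest did not overlap, but no such split was made for other genes. By the annotated exon lengths, 5229 nt in the terminal exon and 786 nt in the other 5, the rest of the span is mostly intron. How much RNA of each part was present is not known here, and its part in the contrast was not tested. The limit of 6 kb was set with earlier results known, and no replicate covered a base from 5 to 6 kb. In the combined list, 20 of 37 sites and 77.5% of the bases were in the 3' 6 kb. In the p-filtered list it was 14 of 25 sites and 72.4% of the bases.

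**Figure D1:**
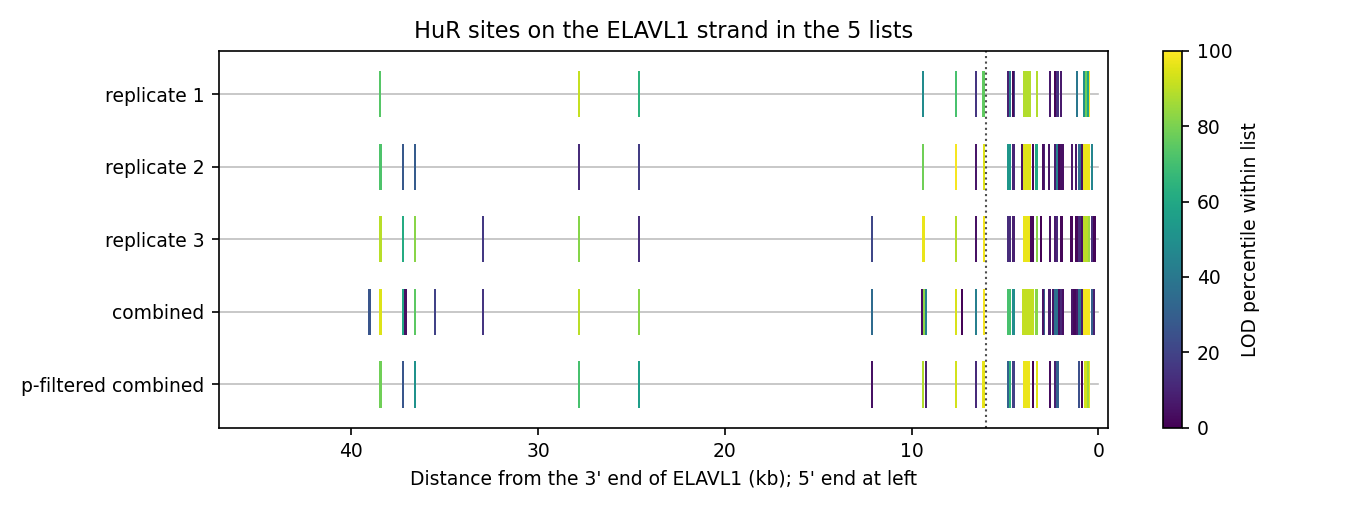
HuR sites along the ELAVL1 span in each of the 5 lists, by distance from the 3' end in kb, coloured by LOD percentile within the list, with narrow sites widened to be visible and a dotted line at 6 kb. Sites are denser per kb to the right of the line in every list. To the left of it lie 17 of 37 combined sites and 11 of 25 p-filtered sites.

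Upstream of 10 kb the sites were few and scattered. Replicate 1 had sites there at 24.6, 27.8 and 38.4 kb only, and the other replicates had sites at each of these places too. Replicates 2 and 3 shared further sites at 36.6 and 37.2 kb, and replicate 3 alone had sites at 12.1 and 32.9 kb. No replicate had a site between 12.1 and 24.6 kb, a stretch of 12445 nt, or in the 8604 nt at the 5' end of the span. The site farthest from the 3' end reached 38.5 kb in all 3 replicates. The combined list also had sites found in no replicate at 35.5, 37.1 and 39.0 kb, the last of them within those 8604 nt. The p filter kept none of these sites.

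No site lay close outside the gene on its strand. Beyond the 3' end, the nearest minus-strand site was 20.2 kb away in replicate 1, 15.5 kb in replicate 2 and 10.2 kb in replicate 3. Beyond the 5' end it was 300.1, 299.7 and 261.8 kb away. Extending the span by 5 kb past the 3' end therefore added no site.

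Set against other places of the same length, ELAVL1 ranked high for the sequence found in all replicates and less high for the number of sites. Each strand was cut into windows of 47073 nt, and windows with no site were left out. The 22 ELAVL1 sites of replicate 1 were more than in 91.8% of 24894 windows, whose median was 4. The 29 sites of replicate 2 exceeded 84.7% of 29748 windows and the 30 of replicate 3 exceeded 83.2% of 37798. ELAVL1 had 1550 bases found in all 3 replicates, more than 96.4% of 22478 windows, whose median was 165. The 3' 6 kb alone held 1190 of these bases, more than 99.6% of 58115 windows of 6 kb, whose median was 75. The 6-kb part of ELAVL1 was placed at the gene's 3' end with its sites seen, while the other windows were not placed at 3' ends. Windows ignored gene borders, and no correction was made for how abundant a transcript was, so the percentages only describe the lists.

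ELAVL1 sites ranged from near the bottom to near the top of each list, with many low ones in the replicate and combined lists. Their median LOD percentile was 49.0 in replicate 1, 12.3 in replicate 2 and 12.5 in replicate 3, a mean of 24.6 ± 21.1 (SD, n = 3), where the whole list has 50 by construction. Replicate 1 stood apart with the highest value, and without it the mean was 12.4. In replicate 1, 2 of 22 sites were in the top decile of the list and 5 in the bottom decile. Replicate 2 had 4 of 29 in the top and 13 in the bottom decile, and replicate 3 had 3 of 30 and 12. The combined list had a median of 30.8, with 5 of 37 sites in the top and 13 in the bottom decile. In the p-filtered list the median was 50.6, near that of the list, with 6 of 25 sites in the top and 6 in the bottom decile. The whole list has 10% in each decile by construction. The median percentile depends on the lower end of the lists. With LOD above 2 the mean was 59.6, and with each list limited to its 186157 highest-scoring sites it was 68.5, from 22, 7 and 10 remaining ELAVL1 sites.

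The low-scoring sites lay mostly at the 3' end, between taller ones. All 5 bottom-decile sites of replicate 1 were in the 3' 6 kb, as were 12 of 13 in replicate 2 and 11 of 12 in replicate 3. The median percentile in the 3' 6 kb was 39.7, 7.23 and 6.79 in replicates 1, 2 and 3, against 70.9, 28.8 and 81.9 in the rest of the span. The difference was -42.6 ± 28.6 percentile points (SD, n = 3), lower at the 3' end in 3 of 3 replicates, and -26.4 without replicate 3. An exact two-sided sign-flip test gave p = 0.25, the smallest p that 3 replicates allow, so the difference cannot pass a threshold of 0.05. With lists of equal size the difference was -31.2, 17.5 and -4.57 points, a mean of -6.06, and its direction turned in replicate 2.

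**Figure D2:**
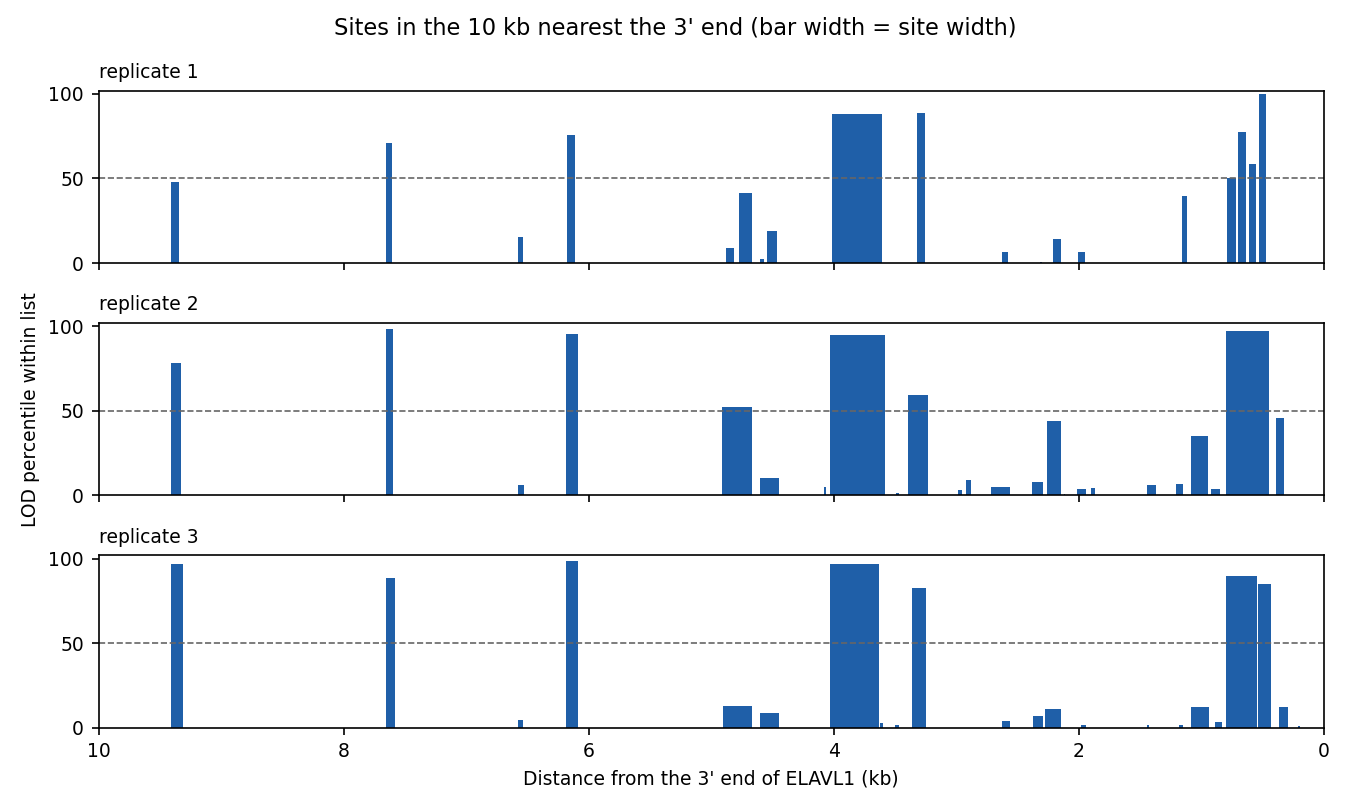
Sites within 10 kb of the 3' end in the 3 HuR replicates, with distance from the 3' end in kb across and LOD percentile within the list upward, and the list median as a dashed line. In each replicate bars above the dashed line start at about 0.43, 3.23, 3.58, 6.08 and 7.58 kb, and the bars between 1 and 3 kb stay below the dashed line.

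Of the 12 highest combined scores in ELAVL1, 10 were at sites found in all 3 replicates, 4 of them in the 3' 6 kb. No ELAVL1 site was in the top decile of every replicate. A combined score contains the reads of the replicates, so it is no support independent of them.

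By the mean of its highest percentile in each replicate, the top stretch was near the 3' end, at chr19:8023886-8024255, 0.43 to 0.80 kb from it. Its highest percentile was 99.8 in replicate 1, 96.9 in replicate 2 and 89.8 in replicate 3, a mean of 95.5 ± 5.15 (SD, n = 3), and its combined LOD was 16.3. The stretch was 1 site of 355 nt in replicate 2, 2 sites in replicate 3 and 4 separate sites in replicate 1. Replicate 1's highest-ranked ELAVL1 site, with a LOD of 12.6, was the 60-nt one at the 3' side of this stretch. The other replicate 1 sites of the stretch were at percentiles 58.5, 77.4 and 50.2. In the p-filtered list, the ELAVL1 site that starts at 3.63 kb ranked highest, at percentile 97.1, against 95.8 for the best of this stretch.

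The broadest stretch lay farther from the 3' end, at chr19:8026886-8027555, 3.43 to 4.10 kb from it. A single site of 410 nt in replicate 1, 445 nt in replicate 2 and 395 nt in replicate 3 covered most of it, the widest ELAVL1 site of each list. Its percentile was 88.4, 94.9 and 96.5 in replicates 1, 2 and 3, with 93.3 ± 4.33 as mean and SD (n = 3), and its combined LOD was 12.3. All 3 replicates covered 400 of its bases, the most of any ELAVL1 stretch. Next to it, chr19:8026686-8026850, 3.23 to 3.39 kb from the 3' end, had percentiles of 88.4, 59.5 and 82.4 and a combined LOD of 10.2.

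Between 1 and 3 kb, the recurrent sites lay below the list median in every replicate. At chr19:8025396-8025475, 1.94 to 2.02 kb from the 3' end, the percentiles were 6.79, 3.94 and 1.60 in replicates 1, 2 and 3. At chr19:8025996-8026170, 2.54 to 2.71 kb away, they were 6.83, 4.72 and 3.98. The sites that start 4.44 kb away also ranked low, with a mean of 12.8 ± 5.62 (SD, n = 3), while chr19:8028121-8028365, 4.66 to 4.91 kb away, had 41.4, 52.4 and 12.6.

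Just upstream, a site at chr19:8029541-8029645, 6.08 to 6.19 kb from the 3' end, had the highest combined LOD of the gene, 16.7. Its percentile was 75.5 in replicate 1, 95.3 in replicate 2 and 98.3 in replicate 3, a mean of 89.7 ± 12.4 (SD, n = 3). The site at chr19:8031031-8031115, 7.57 to 7.66 kb away, had 70.9, 98.5 and 88.7 and a combined LOD of 13.5. It was the highest-ranked ELAVL1 site of replicate 2. The site at chr19:8032741-8032870, 9.28 to 9.41 kb away, had 47.7, 78.5 and 96.8 and a combined LOD of 10.4.

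The distal sites ranked differently in different replicates. The site at chr19:8061866-8061925, 38.4 to 38.5 kb from the 3' end, was high throughout, with percentiles of 73.5, 72.2 and 89.4 and a combined LOD of 13.8. At chr19:8051206-8051280, 27.7 to 27.8 kb away, they were 91.2, 12.3 and 82.0, so replicate 2 stood apart. At chr19:8048026-8048065, near 24.6 kb, they were 64.5, 17.7 and 13.0, so replicate 1 stood apart. The means were 61.8 ± 43.1 at 27.7 kb and 31.7 ± 28.4 at 24.6 kb (SD, n = 3 each).

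**Figure D3:**
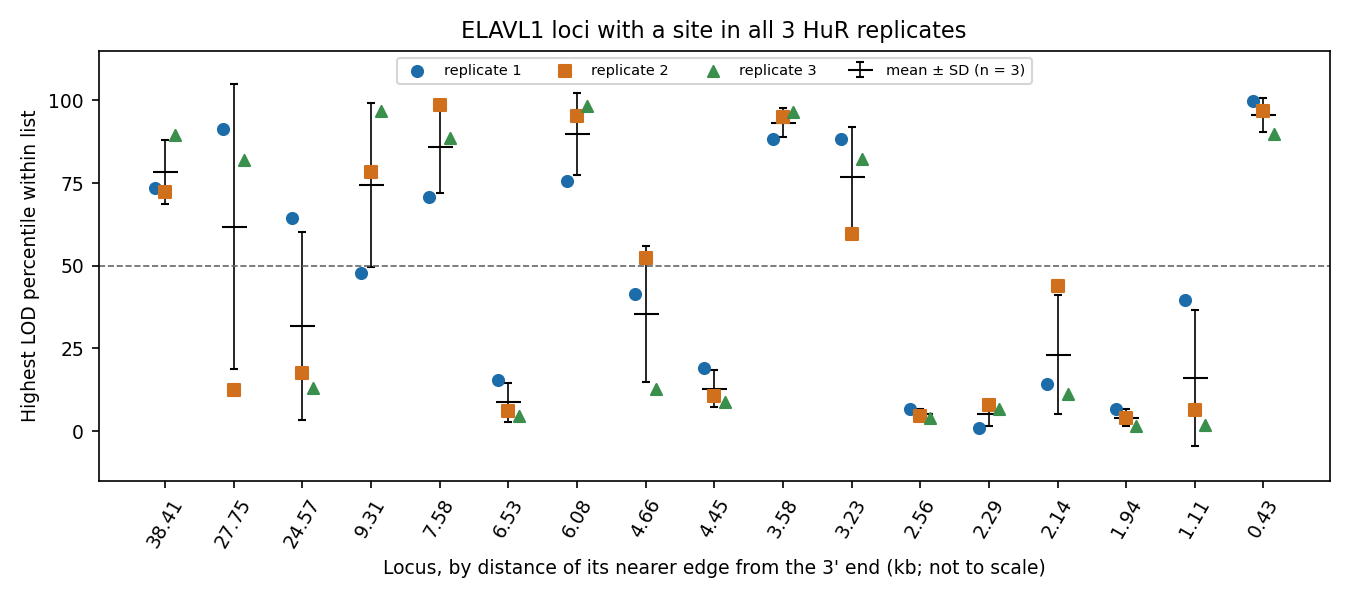
Highest LOD percentile in each HuR replicate (points) and mean ± SD (bars, n = 3) at the 17 ELAVL1 loci with a site in all 3 replicates, in order of distance from the 3' end, with the list median dashed. The loci at 0.43, 3.23, 3.58, 6.08, 7.58 and 38.41 kb lie above 50 in all 3 replicates.

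Joining overlapping sites of the 3 replicates gave 33 ELAVL1 loci, of which 17 (51.5%) had a site in all 3 replicates, 7 in 2 and 9 in 1. Over all 604040 loci of the series joined in the same way, 25.2% had a site in all 3. Of the 17 ELAVL1 loci, 6 were at or above percentile 50 in every replicate and 7 were below 50 in every replicate, 6 of these in the 3' 6 kb. All 7 ELAVL1 loci found in 2 replicates lacked replicate 1, against 94.6% of such loci in the series. Of the 9 found in 1 replicate, 0 were in replicate 1, 5 in replicate 2 and 4 in replicate 3, against 3.22%, 20.5% and 76.3% of such loci in the series. The near absence of loci with replicate 1 alone was thus shared with the series, whose replicate 1 list is the shortest. Across loci shared by a pair, Spearman's rho of the percentiles was 0.73 for replicates 1 and 2 (17 loci), 0.78 for replicates 1 and 3 (17 loci) and 0.91 for replicates 2 and 3 (24 loci). Pearson's r was 0.69, 0.84 and 0.79 for the same pairs. The loci share a transcript and a library, so these values are a description.

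Counted by any overlap, a larger share of ELAVL1 sites than of the whole list met a site of both other replicates. All 22 ELAVL1 sites of replicate 1 did so, against 89.1% of the list. The ELAVL1 count was 17 of 29 (58.6%) in replicate 2, against 37.8% of the list, and 19 of 30 (63.3%) in replicate 3, against 28.4%. The ELAVL1 mean was 74.0% ± 22.7 and that of the lists 51.8% ± 32.7 (SD, n = 3 each). No test was made, since sites of a gene are not replicates. The median width in replicates 1, 2 and 3 was 60, 75 and 60 nt for ELAVL1 sites against 45, 55 and 50 nt for the lists. The part of width in the overlap was not tested.

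The order held in replicates 2 and 3 but not in replicate 1 under 2 other settings. When a match needed 50% of both intervals, 50%, 37.9% and 40% of ELAVL1 sites recurred in replicates 1, 2 and 3, against 53.0%, 25.8% and 19.3% of the lists. With lists of equal size the ELAVL1 shares were 10 of 22 (45.5%), 7 of 7 and 8 of 10 (80.0%), against 50.4%, 46.8% and 47.0%. In replicate 1 the ELAVL1 share was also close to that of the list with LOD above 1 (90% against 89.0%) and above 2 (88.9% against 87.6%). With sites up to 25 nt apart joined, it was 100% against 89.1%.

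Counted by base, 3185 nt of ELAVL1 were covered in any replicate. Of these, 1550 nt (48.7%) were covered in all 3, 865 nt (27.2%) in 2 and 770 nt (24.2%) in 1. Without replicate 1, 75.1% of the bases were in both remaining lists, a share for which no whole-series value is given. Over the whole series 21.8% of bases were in all 3, 36.0% in 2 and 42.2% in 1. In the 3' 6 kb 46.8% of 2545 nt were in all 3, and in the rest of the span 56.3% of 640 nt were.

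**Figure D4:**
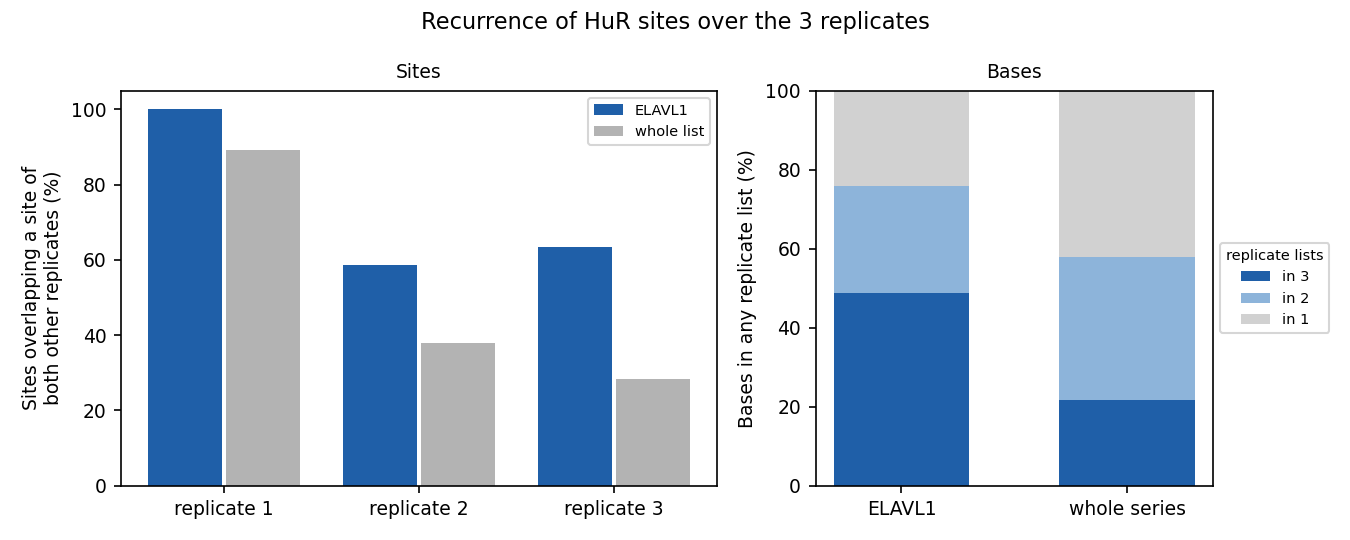
Left, share of sites overlapping a site of both other replicates, for ELAVL1 and for the whole list of each HuR replicate; right, share of covered bases found in 3, 2 or 1 replicate lists, for ELAVL1 and the whole series. The ELAVL1 bars are the taller ones in each replicate (100%, 58.6% and 63.3%), and 48.7% of ELAVL1 bases are in all 3 lists against 21.8% in the series.

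In the combined list, the median rank of ELAVL1 sites was higher the more replicates they were found in, with overlap between the classes. Of the 37 combined sites, 16 (43.2%) overlapped a site of all 3 replicates, against 22.9% of the whole combined list. The share in no replicate was also above that of the list, 8 of 37 (21.6%) against 11.0%, while 16.2% were in 2 replicates, against 30.0%, and 18.9% in 1, against 36.2%. The 16 fully recurrent sites had a median percentile of 82.0 and a median width of 117.5 nt, against 86.7 and 85 nt for such sites of the whole list, and 6 of the 16 (37.5%) were below percentile 50, against 9.69% in the whole list. The 6 sites in 2 replicates had a median percentile of 33.6, the 7 in 1 replicate had 8.68, and the 8 in none had 4.50. The corresponding medians of the whole list were 63.7, 32.0 and 10.9, each above that of ELAVL1. Of the 6 ELAVL1 sites in 2 replicates, those at 36.6 and 37.2 kb stood above percentile 50, at 74.7 and 59.96.

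The authors' p filter kept a share of ELAVL1 sites close to that of the whole list. Of the 37 combined sites, 20 (54.1%, 95% Wilson interval 38.4 to 69.0, counting error only) overlapped a p-filtered interval, against 52.3% of the whole list. The filter kept 9 of 20 sites in the 3' 6 kb and 11 of 17 in the rest. Of the 16 fully recurrent sites it kept 14 (87.5%), against 98.1% of such sites in the whole list. By bases it kept 1830 of 3695 nt (49.5%), against 45.3% of the whole list. The broad stretch at 3.43 to 4.10 kb was trimmed to 400 of its 670 nt, and the stretch at 0.43 to 0.80 kb to 3 intervals with 325 of its 370 nt. Trimmed intervals could also carry another score. The highest LOD at 3.43 to 4.10 kb was 20.5 in the p-filtered list and 12.3 in the combined list. At 38.4 kb, where the interval was unchanged, both lists had 13.8.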

How the data were processed

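The submitters' processing notes list cutadapt 1.0, TopHat2 2.0.8 and the build hg19 (GRCh37). Each deposited interval carries a LOD score from the authors. How they called intervals and computed scores is not given in the labels or headers. All scores were above 0 and all interval ends lay on a grid of 5 nt. Coordinates are 1-based on hg19.

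Sites were compared on the same strand, with an overlap of at least 1 nt as a match. Loci are overlapping replicate sites joined. Percentiles are mid-ranks within a list, and a locus takes its highest site. The gene, its split at 6 kb and the settings were chosen with earlier results of these data known. Loci, windows of 6 kb and sequence counts were chosen with the site values seen. Combined sites are named where they are in all 3 replicates and among the 12 highest combined scores of the gene. The sites 1.94, 2.54 and 4.44 kb from the 3' end, and those in fewer replicates, were picked with their values known. No gene of like pattern is named, because the only annotation used, GENCODE 29, is on GRCh38 and the lists name no genes. It served for the transcript's length and sequence. Alternatives were LOD above 1 or 2, equal list length, 50% overlap, joining sites up to 25 nt apart, other distances and leaving out each replicate. Calculations used scipy 1.17.1, pandas 2.3.3 and numpy 2.4.6 under Python 3.11.15, and figures matplotlib 3.10.9. The code was tested on simulated data.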

Additional observations from a re-analysis of the deposited data

How the results depend on the processing

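The 7 results had 47 alternative values, of which 15 moved and 0 reversed. The other 32 kept the direction of a difference, or changed by no more than the replicate SD of a mean, a ratio of 1.5 for the site number, or a 95% Wilson interval for a share. That interval treats neighbouring bases as independent and is narrow. A value that crossed percentile 50 was counted as moved, not as reversed. The mean of the median percentiles did so, from 24.6 as reported, with LOD above 2 and with lists of equal size. The difference between the 3' end and the rest was counted as the same with lists of equal size. Its mean shrank from -42.6 to -6.06 there, and its direction turned in replicate 2. With lists of equal size, the mean site number was 13, the mean of the median percentiles 68.5, the bases in all 3 replicates 46.5% and the share of bases in the 3' 6 kb 73.15%. With LOD above 1, 46.8% of bases were in all 3 replicates. With LOD above 2 it was 52.8%, the mean of the median percentiles 59.6 and the combined sites kept by the p filter 74.1%. When a match needed 50% of both intervals, the mean recurrence was 42.6% and the p filter kept 35.1%. For the bases and the p filter, no share of the whole series or list is given under these settings. These ELAVL1 values therefore cannot be set against the whole-list shares of the main settings. The 3' share of bases was 38.4% within 3 kb and 90.7% within 10 kb, which follows from the distance. Leaving out each replicate gave 54.0% to 75.1% of bases in all remaining lists, the highest without replicate 1; here 2 lists in place of 3 change the definition. Without replicate 1 the mean of the median percentiles was 12.4. For the other moves the cause was not tested. Shifted windows, tried after the data were seen, put ELAVL1 above 91.9%, 84.7% and 83.3% of windows in replicates 1, 2 and 3. Since depth is unknown, a missing site cannot be told from one too thinly read. No paired analysis was possible because only HuR precipitations have values here.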

Other observations

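Few sites lay on the opposite strand within the ELAVL1 span. Replicate 1 had 1 plus-strand site, 5.04 kb from the 3' end, at percentile 0.558 of its list, replicate 2 had 0 and replicate 3 had 1, at chr19:8023991-8024010, at percentile 40.1. The combined list held the replicate 3 site, at percentile 31.6, and the p-filtered list held neither. That site lies opposite the stretch at 0.43 to 0.80 kb from the 3' end.

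Some ELAVL1 sites are in the combined list and in no replicate list, or the reverse. Of the 8 combined sites in no replicate, 1 (12.5%) was kept by the p filter, against 10.4% of such sites in the whole list. It lies at chr19:8032691-8032705, 9.23 kb from the 3' end, with a combined LOD of 5.99. A replicate 3 site at chr19:8026511-8026530, 3.05 kb from the 3' end, had a LOD at percentile 0.143 and no counterpart in the combined list. The site at chr19:8024571-8024660, 1.11 kb from the 3' end, had percentiles of 39.7, 6.53 and 1.91 in replicates 1, 2 and 3, and a combined percentile of 6.00. All were picked with their values known.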
